A study of Rattus norvegicus with 9 samples.

Results

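Respiratory complex assembly factors are proteins that help to build the enzymes of oxidative phosphorylation without staying in the finished enzyme. Their transcripts were examined in rat hippocampal neurons exposed to NPCT or to its parent peptide PCT. The family was taken as 47 gene names, 13 for complex I, 4 for complex II, 6 for complex III, 20 for complex IV and 4 for complex V, out of 34092 genes in the deposited table. Of these, 44 were in the table, and Surf1, Sco2 and Pet117 were not found there by name. Of the 44, 43 passed the filter on low values (an average of 0.5 FPKM or more) and were tested among 15958 genes. Sdhaf1, which protects the iron-sulfur subunit of complex II, did not pass, with 0 to 0.371 FPKM in the 9 libraries. The family was selected on measured values, namely the large rises of Uqcc2 and Fmc1 in NPCT libraries over controls. So NPCT against control values are given as a description for all members, and Uqcc2 and Fmc1 are given without a p value and are left out where NPCT is set against PCT over the members, save in the alternatives at the end.

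RNA was sequenced from 9 libraries of wild-type primary hippocampal neurons, prepared from rat fetuses at embryonic day 17. At 7 days in vitro the cultures received vehicle (Control, 3 libraries), 1 nM human NPCT (3 libraries) or 1 nM human PCT (3 libraries) for 24 h. PCT stands for procalcitonin, and NPCT for aminoprocalcitonin, a fragment of its N-terminal end. The cultures were kept without mitotic inhibitors. According to the methods, biological triplicates were pooled for RNA extraction, while the labels number 3 replicates a group, so p values measure the spread between these libraries, which may be technical. In such bulk samples, fewer cells of a type and less RNA per cell cannot be told apart.

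The libraries held 13573056 to 17211642 fragments on genes. The neuronal markers were all expressed, with a summed level of 2700 to 2980 FPKM across the 9 libraries, and astrocyte markers were abundant too, at 2440 to 2620 FPKM in Control, 2380 to 2660 in NPCT and 2100 to 2170 in PCT. For PCT minus Control, 7 of the 8 astrocyte markers were below 0, with a median log2 difference of -0.62. Gfap was above 0 (776, 843 and 919 FPKM on average in Control, NPCT and PCT). Summed microglial markers, at 7 of 8 names found, were 16.4 to 23.9 FPKM in Control, 23.2 to 90.0 in NPCT and 7.22 to 10.8 in PCT, and no defining marker found was at 0 in a whole group. Summed markers of the oligodendrocyte lineage did not overlap between groups, at 399 to 417 FPKM in Control, 429 to 446 in NPCT and 342 to 356 in PCT. The lower sum in PCT was that of Olig1 (272, 273 and 191 FPKM on average in Control, NPCT and PCT), and 6 of the 8 markers were above 0 for PCT minus Control. Fragments on the mitochondrial genome made up 5.18 to 5.84% in Control, 3.70 to 4.17% in NPCT and 4.11 to 6.21% in PCT. PCT replicate 3 stood apart from the other 2 PCT libraries, with a chi-square per degree of freedom of 21.6 and 18.9 against 6.38 between those 2, and NPCT replicate 3 from the other NPCT libraries, with 10.6 and 10.8 against 4.38. The part of these differences in the results below was not tested.

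Mitochondria make ATP with 5 multi-subunit complexes in the inner membrane. Complexes I and II take electrons from NADH and succinate, complex III passes them to cytochrome c, complex IV passes them to oxygen, and complex V uses the resulting proton gradient to make ATP. Some of the subunits of the chain are made inside mitochondria and the rest are imported. The complexes need dedicated factors that join the modules in order. Where a complex holds heme, flavin, copper or iron-sulfur clusters, factors also insert these. Neurons depend on this machinery, and inherited loss of many of these factors causes mitochondrial disease of the brain.

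Transcript levels of the members were moderate. FPKM scales the fragments of a gene by its length and by a size factor of the library. Mean FPKM over the 9 libraries ran from 2.62 for Coa7 to 39.3 for Coa5 among the tested members, leaving out Cox14 at 223. The level of Cox14 rests on a gene model of 174 bases, shorter than the 370 to 420 bases of the selected library fragments, as are the models of Coa6, Cmc2 and Sdhaf4, so the levels of these 4 genes are not comparable with those of other members. Leaving these out, the highest levels after Coa5 were those of Cox20 (33.0 FPKM), Coa3 (32.1), Sdhaf2 (29.0) and Tmem70 (28.0). The lowest after Coa7 were Nubpl (3.87), Fmc1 (5.10), Ndufaf2 (5.17) and Cox15 (5.59). The place of Fmc1 holds for the mean over the 9 libraries only. In NPCT it averaged 7.35 FPKM, above Ndufaf2 (5.55) and Cox15 (6.07). The differences between neighbours in this order were not tested. Cox11, Cmc2 and Coa5 overlap expressed genes on the opposite strand (Tom1l1 at 7.93 FPKM and Stxbp4 at 4.08 for Cox11, Cenpn at 2.77 for Cmc2, AC133270.1 at 0.822 for Coa5). The overlap is of whole gene spans, introns included, and whether exons are shared was not examined. As no strand-specific counting is stated, reads from any shared exon cannot be told apart.

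Uqcc2 was one of the members that brought the family into view. It works with Uqcc1 on newly made cytochrome b, the mitochondrially encoded core of complex III. The gene (ENSRNOG00000025909) lies at chr20:5712203-5723902 on the minus strand of Rnor_6.0, and the table gives it a length of 618 bases. Uqcc2 was measured at 15.5, 17.7 and 17.1 FPKM in the Control libraries, at 38.3, 33.0 and 43.4 FPKM in the NPCT libraries and at 20.0, 20.0 and 32.4 FPKM in the PCT libraries. The 3 NPCT libraries were above all other libraries, and PCT replicate 3 was close to the lowest of them. The group means were 16.8 ± 1.13, 38.2 ± 5.17 and 24.1 ± 7.14 FPKM for Control, NPCT and PCT (SD, n = 3), on 147 to 414 fragments a library. The log2 difference was 1.18 for NPCT minus Control, 0.49 for PCT minus Control and 0.69 for NPCT minus PCT, with an SE of 0.18 in each. PCT minus Control was 0.25 without PCT replicate 3.

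Fmc1 was the other one. Fmc1 is a partner in the assembly of the F1 head, the catalytic part of complex V. The gene (ENSRNOG00000005618) lies at chr4:66276835-66284868 on the plus strand of Rnor_6.0, with a length of 1336 bases. Fmc1 was measured at 3.46, 3.11 and 3.77 FPKM in Control, at 7.71, 6.05 and 8.29 FPKM in NPCT and at 3.58, 4.37 and 5.59 FPKM in PCT. NPCT libraries were above both other groups, while PCT and Control libraries overlapped. Mean levels were 3.45 ± 0.330, 7.35 ± 1.16 and 4.51 ± 1.01 FPKM for Control, NPCT and PCT (SD, n = 3), on 62 to 171 fragments a library. The log2 difference was 1.06 for NPCT minus Control, 0.36 for PCT minus Control and 0.70 for NPCT minus PCT, with an SE of 0.18 in each. PCT minus Control was 0.19 without PCT replicate 3.

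**Figure D1:**
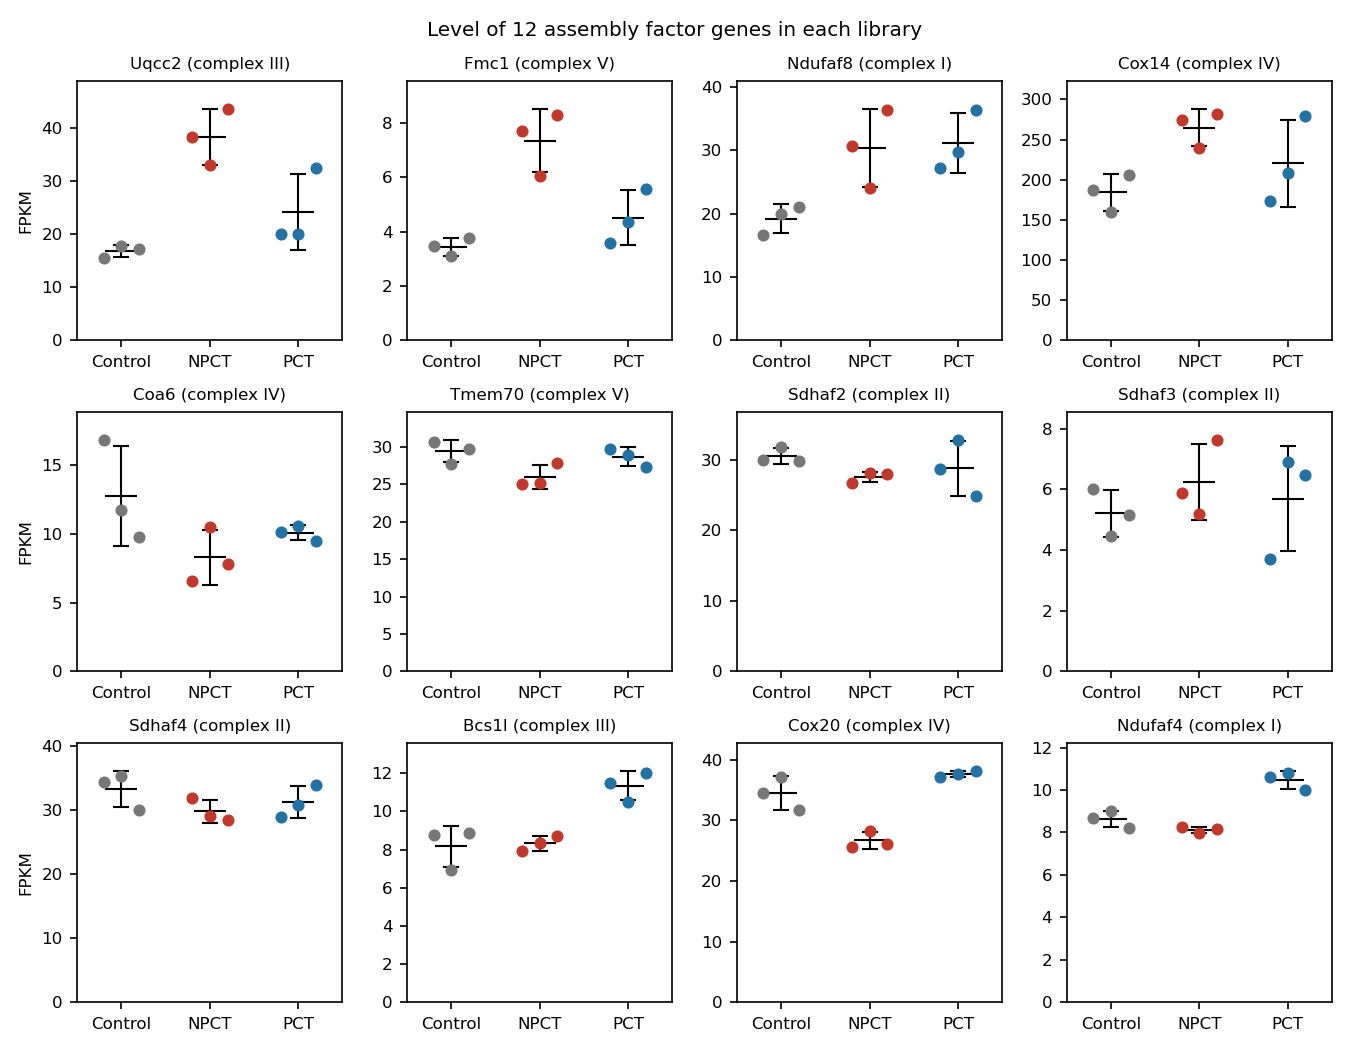
FPKM of 12 assembly factor genes, each panel a gene with the vertical axis from 0, points for the 3 libraries of Control, NPCT and PCT, and the line and bars for the mean and SD. Uqcc2 and Fmc1 were highest in the 3 NPCT libraries, Cox20 was lowest there, and Bcs1l and Ndufaf4 were highest in the 3 PCT libraries.

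The promoters of the pair are shown because both genes were higher in NPCT libraries. The windows run from 250 bases before to 50 bases after the RefSeq gene start, on build GRCr8. The first is chr20:5216334-5216633 on the minus strand and the second is chr4:68240759-68241058 on the plus strand. Capitals mark matches to motifs of 3 factors linked to nuclear genes of mitochondria, searched on both strands, namely NRF1 (GCGCANGCG), the ETS family that includes GABPA (CCGGAAGT) and YY1 (AAGATGGCG).
Uqcc2: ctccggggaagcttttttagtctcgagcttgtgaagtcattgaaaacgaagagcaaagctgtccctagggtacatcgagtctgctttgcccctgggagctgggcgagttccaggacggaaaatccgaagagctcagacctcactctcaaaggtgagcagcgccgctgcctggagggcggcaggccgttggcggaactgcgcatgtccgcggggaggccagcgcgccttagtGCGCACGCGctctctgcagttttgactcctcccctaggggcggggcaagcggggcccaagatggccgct
Fmc1: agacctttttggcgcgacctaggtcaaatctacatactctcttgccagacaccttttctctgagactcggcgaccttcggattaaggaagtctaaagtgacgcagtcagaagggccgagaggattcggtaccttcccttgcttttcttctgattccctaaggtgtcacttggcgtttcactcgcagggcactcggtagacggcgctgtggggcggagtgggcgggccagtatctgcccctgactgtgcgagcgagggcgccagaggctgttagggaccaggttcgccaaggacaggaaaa
The Uqcc2 window held 1 NRF1 match, starting 19 bases before the gene start, and the Fmc1 window held none of the 3 motifs.

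Windows were found for 42 of the 47 names, Coa5, Ndufaf6, Pet117, Sco2 and Tmem70 being without one. An NRF1 match was in 10 of these 42 windows (23.8%) and in 6.26% of 27457 windows of all genes, or 8.05% of those of protein-coding genes. With a C added at the end of the motif, these numbers were 7 of 42 (16.7%), 4.71% and 6.09%. An ETS match was in 7 of 42 windows (16.7%), against 4.01% of all and 4.99% of protein-coding genes. A YY1 match was in 3 of 42 (7.14%), against 1.93% and 2.29%. Any of the 3 motifs was in 19 of 42 (45.2%), against 11.1% and 13.9%. These 19 members included Uqcc2, Ndufaf8 and Pet100, with positive differences for NPCT minus Control, and Cox20, Ndufaf4 and Sco1, with negative ones. Surf1, which has no measured level here, was also among them. A match is a string of letters, and no binding was measured.

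In NPCT against Control, 26 of the 43 tested members lay above 0 on the log2 scale and 17 below, with a median of 0.10, where the median of all genes tested was 0.01. The differences ran from -0.61 for Coa6 to 1.18 for Uqcc2. A gene is called here where it has an adjusted p of at most 0.05 (limma, Benjamini-Hochberg) and a fold above 1.5, which held for 0.219% of all genes, while 0.470% passed the adjusted p alone. The members past it were the 2 that chose the family, and this is not a test of them. All 3 NPCT libraries lay above all 3 Control libraries in 12 members (20.0% of all genes did so) and below them in 7 (20.3% of all genes). Since this contrast chose the family, nothing is read from these counts. No member was called in 7 of the 9 fits that left out 1 library, the exceptions being those without PCT replicate 1 (2 members called) and PCT replicate 3 (3 members called).

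PCT against Control was not used to choose the members, although it shares the Control libraries. Here 30 of 43 members lay above 0 and 13 below, with a median of 0.12, where the median of all genes tested was 0.00. No member was called (2.31% of all genes were), and 1, Bcs1l, passed the adjusted p (4.20% of all genes did). An unadjusted p under 0.05 was reached by 10 members, or 23.3%, where 18.9% of all genes reached it. All 3 PCT libraries lay above all 3 Control libraries in 15 members, or 34.9%, against 13.1% of all genes, and below them in 1 member, Ttc19, against 11.9%. Limma-voom on recovered fragments also called no member, while 1 member was called under the alternatives that removed the trend with gene length or used the replicate number as a block. The median of the members was 0.11 without PCT replicate 3 and 0.06 with the trend in gene length removed.

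NPCT against PCT set the peptides side by side. Uqcc2 and Fmc1 were chosen for their level in these NPCT libraries, so the counts are of the other 41 members. Of these, 16 were higher with NPCT and 25 lower, with a median of -0.05, where the median of all genes tested was -0.01. None of the 41 was called by limma or limma-voom (5.75% of all genes were by limma), and 9 of them, or 22.0%, reached an unadjusted p under 0.05, where 33.1% of all genes did. An adjusted p of at most 0.05 was found for 5, or 12.2%, against 16.3% of all genes tested. The 5 were Pet100, which was higher with NPCT, and Cox20, Ndufaf4, Bcs1l and Sco1, which were lower. All 3 NPCT libraries lay above all 3 PCT libraries in 4.88% of the 41 (15.4% of all genes) and below them in 17.1% (18.0% of all genes). Each of these shares was below that of all genes. Without PCT replicate 3, Cox20 was at -0.49 (limma, adjusted p = 0.00337) and Ndufaf4 at -0.40 (limma, adjusted p = 0.00703).

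**Figure D2:**
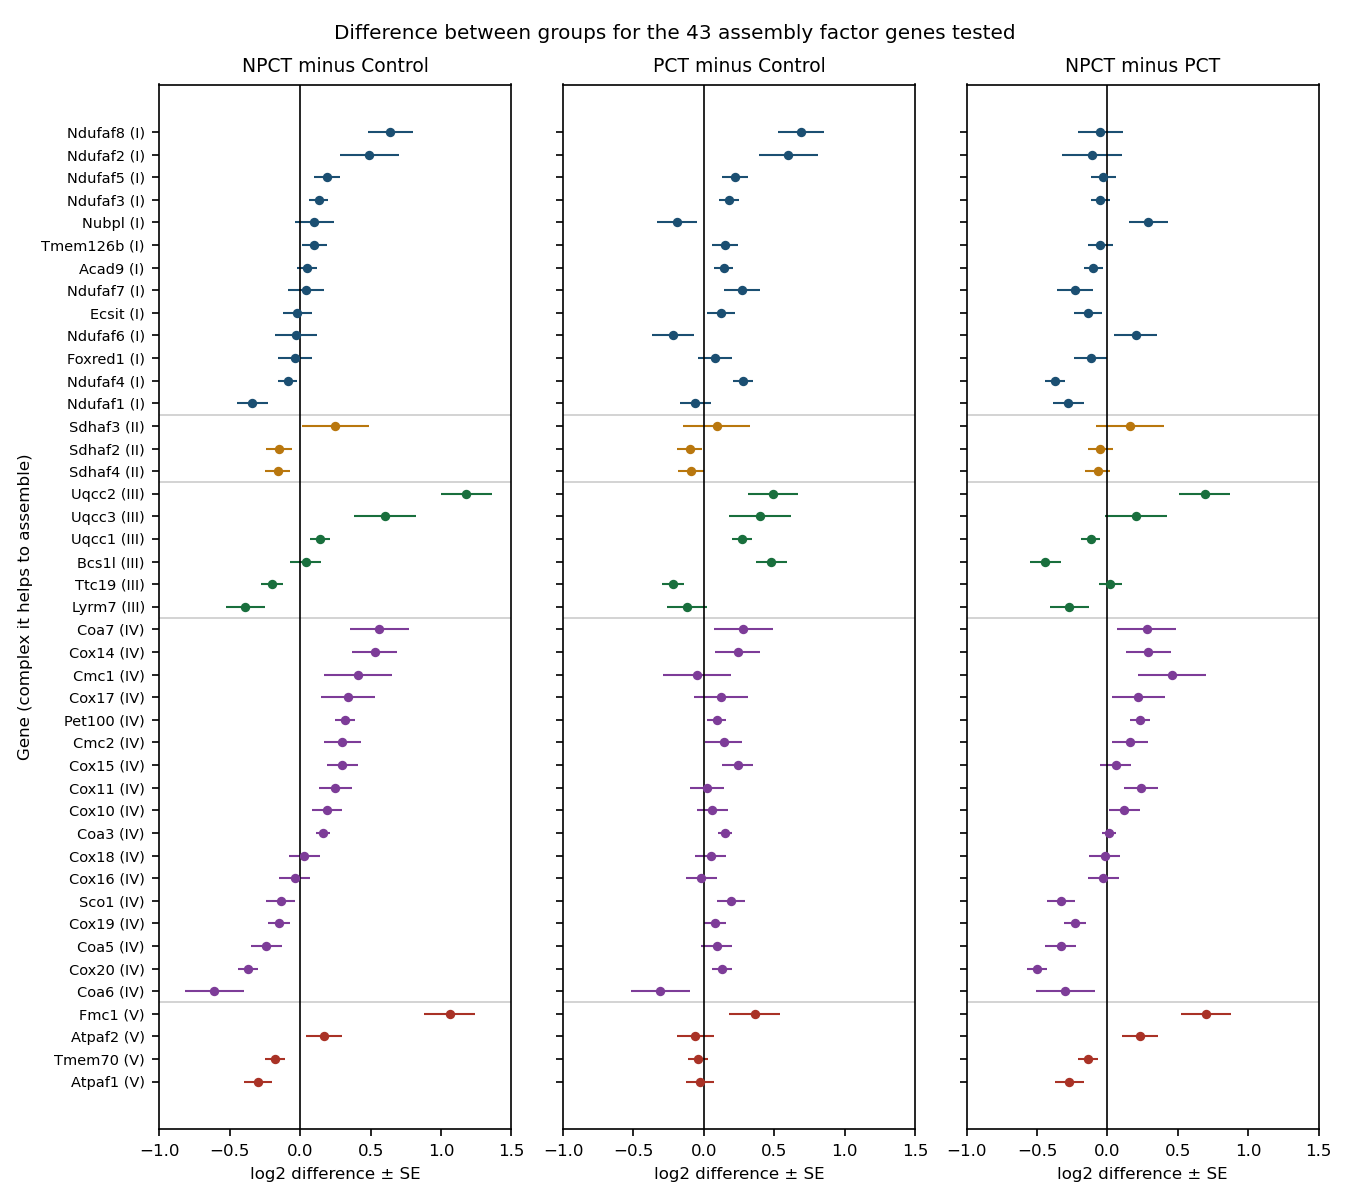
Log2 difference (horizontal axis, log2 of FPKM plus 0.1) with its SE for each of the 43 tested members, grouped and coloured by complex, in NPCT minus Control, PCT minus Control and NPCT minus PCT. Uqcc2 (1.18) and Fmc1 (1.06) lie farthest to the right in the first panel, and Cox20 (-0.50) farthest to the left in the third.

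Complex I, NADH dehydrogenase, is the largest of the chain and has 13 members here, all tested. Their median log2 difference was 0.05 with NPCT and 0.15 with PCT over Control, and with PCT 10 of the 13 were above 0 and 7 had all PCT libraries above Control, or 53.8%, against 13.1% of all genes. No complex I member was called in any comparison (limma), and an unadjusted p under 0.05 was reached by 5 for PCT against Control (38.5%, against 18.9% of all genes) and 2 for NPCT against PCT (15.4%, against 33.1%). Ndufaf8, a small partner of Ndufaf5, had the largest differences from Control of this group. Ndufaf8 (ENSRNOG00000042653, chr10:109278712-109280863, plus strand, 453 bases) was at 16.6, 20.0 and 21.0 FPKM in Control, 30.6, 24.0 and 36.3 FPKM in NPCT and 27.2, 29.7 and 36.4 FPKM in PCT. Every NPCT and PCT library was above every Control library, and the NPCT and PCT libraries overlapped. The log2 difference was 0.64 (SE 0.16) for NPCT minus Control and 0.69 (SE 0.16) for PCT minus Control, where limma's adjusted p was 0.0545. It was 0.0323 to 0.191 over the alternatives, and at most 0.05 in 4 of 20. Between the peptides the log2 difference was -0.05 (SE 0.16, limma, adjusted p = 0.874).

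Ndufaf4, which acts with Ndufaf3 at an early step, was higher with PCT than with NPCT. It was chosen after its values were seen. Ndufaf4 (ENSRNOG00000007506, chr5:39251337-39257512, plus strand) was at 8.70, 9.0 and 8.23 FPKM in Control, 8.26, 7.96 and 8.16 FPKM in NPCT and 10.6, 10.8 and 10.0 FPKM in PCT. The 3 PCT libraries were above all 6 others, and NPCT and Control overlapped. NPCT minus PCT was -0.37 (SE 0.07, limma, adjusted p = 0.014), and the adjusted p was at most 0.05 in 18 of 20 alternatives, the exceptions being the fit of only NPCT and PCT (0.0578) and the fit without PCT replicate 2 (0.0518). PCT minus Control was 0.28 (SE 0.07, limma, adjusted p = 0.0691).

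Ndufaf2, a late factor, had all 6 treated libraries above the controls, with 3.68 to 4.10 FPKM in Control, 4.65 to 6.82 in NPCT and 4.69, 5.49 and 8.09 in PCT. PCT minus Control was 0.60 (SE 0.21, limma, adjusted p = 0.148). That difference leaned on PCT replicate 3, which was at 0.66 against the mean of the other PCT libraries (log2). The intermediate assembly complex, which joins the membrane arm, has Ndufaf1, Acad9, Ecsit and Tmem126b in this list. Its median difference was 0.01 with NPCT and 0.13 with PCT over Control. Ndufaf1 was at 7.17 to 7.49 FPKM in NPCT, below the 8.91 to 9.79 FPKM of Control and the 8.13 to 10.4 FPKM of PCT. Its NPCT minus PCT difference was -0.28 (SE 0.11, limma, adjusted p = 0.0989). Nubpl, which delivers iron-sulfur clusters, and Ndufaf6 were the members of complex I with a higher fitted level in NPCT than in PCT, at 0.29 and 0.20. Ndufaf3, Ndufaf5, Ndufaf7 and Acad9 had all PCT libraries above Control, with differences of 0.18, 0.22, 0.27 and 0.14 (limma, adjusted p = 0.199, 0.224, 0.299 and 0.311). Ndufaf5 and Ndufaf7 modify single subunits of the complex. Foxred1, Ecsit and Tmem126b overlapped Control in both treated groups, with differences of -0.04 to 0.15.

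Complex II, succinate dehydrogenase, has 4 factors, of which 3 were tested. None passed the adjusted p in any comparison or reached an unadjusted p under 0.05 (limma). Sdhaf2 attaches flavin to the catalytic subunit, Sdhaf4 binds that subunit once it carries flavin, and Sdhaf3 serves the iron-sulfur subunit. Sdhaf2 (ENSRNOG00000020646, chr1:226547531-226572349, minus strand) was at 30.0, 31.9 and 29.9 FPKM in Control, 26.8, 28.1 and 28.0 FPKM in NPCT and 28.7, 32.8 and 24.9 FPKM in PCT, so that NPCT lay just under Control and PCT spanned both.

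Sdhaf3 (ENSRNOG00000011283, chr4:32495321-32558798, plus strand) was at 6.01, 4.47 and 5.15 FPKM in Control, 5.89, 5.19 and 7.62 FPKM in NPCT and 3.70, 6.90 and 6.48 FPKM in PCT, on as few as 28 fragments. Sdhaf4 (ENSRNOG00000028087, chr9:30243610-30251388, minus strand) was at 34.4, 35.2 and 30.0 FPKM in Control, 31.8, 29.0 and 28.4 FPKM in NPCT and 28.9, 30.8 and 33.8 FPKM in PCT. The groups of both genes overlapped. Log2 differences for PCT minus Control were -0.10, 0.09 and -0.09 for Sdhaf2, Sdhaf3 and Sdhaf4 (limma, adjusted p = 0.647, 0.899 and 0.643), and those for NPCT minus PCT were -0.05, 0.16 and -0.07 (limma, adjusted p = 0.742, 0.679 and 0.62). The SE was 0.24 for Sdhaf3 and 0.09 for the other two.

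Complex III has 6 factors here, all tested, which serve cytochrome b or the Rieske iron-sulfur subunit. The cytochrome b factors Uqcc1, Uqcc2 and Uqcc3 all had positive differences, with a median of 0.60 for NPCT and 0.40 for PCT over Control. The PCT median was that of Uqcc3 and leaned on PCT replicate 3. Against the mean of the other PCT libraries, PCT replicate 3 was at 0.03 for Uqcc1, 0.69 for Uqcc2 and 0.45 for Uqcc3 (log2). Without it, PCT minus Control was 0.25 for Uqcc2. Uqcc3, which also holds cytochrome b and was named after its values were seen, was at 8.88, 11.6 and 9.91 FPKM in Control, 12.5, 14.6 and 19.5 FPKM in NPCT and 9.67, 14.9 and 16.4 FPKM in PCT. NPCT lay above Control and PCT overlapped it. Uqcc1 was at 12.9 to 14.4 FPKM in Control, 14.3 to 16.0 in NPCT and 15.8 to 16.9 in PCT, where PCT minus Control was 0.27 (SE 0.07, limma, adjusted p = 0.0771).

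The factors of the Rieske iron-sulfur subunit, Bcs1l, Lyrm7 and Ttc19, had a median of -0.20 for NPCT and -0.12 for PCT over Control. The PCT median was that of Lyrm7, with PCT replicate 3 at -0.48 against the mean of the other PCT libraries. Relative to each gene's mean (log2), the median level of these factors was -0.04 to 0.13 in Control. It was 0.22 and 0.20 in PCT replicates 1 and 2 and -0.20 in replicate 3, so only replicate 3 lay below Control. Bcs1l, the AAA protein that carries the folded Rieske subunit across the inner membrane, rose with PCT. This gene was singled out after its values were seen. Bcs1l (ENSRNOG00000016754, chr9:81868265-81872197, plus strand) was at 8.74, 6.92 and 8.84 FPKM in Control, 7.94, 8.32 and 8.72 FPKM in NPCT and 11.5, 10.5 and 12 FPKM in PCT. The 3 PCT libraries were above all 6 others. PCT minus Control was 0.48 (SE 0.11, limma, adjusted p = 0.0451), under the fold of 1.5 that a call requires, and NPCT minus PCT was -0.44 (SE 0.11, limma, adjusted p = 0.0282). The adjusted p of PCT minus Control was at most 0.05 in 8 of 20 alternatives and exceeded it without any 1 of the 9 libraries (0.0546 to 0.114), and that of NPCT minus PCT exceeded it without NPCT replicate 1 (0.0885), 2 (0.0667) or 3 (0.0523) and without PCT replicate 1 (0.0848) or 2 (0.052).

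Lyrm7, which keeps the Rieske subunit stable in the matrix, was at 16.4 to 21.4 FPKM in Control and 14.1 to 14.9 in NPCT, while PCT replicate 3 (14.0 FPKM) lay below the other PCT libraries (19.7 and 19.5 FPKM). Ttc19, which helps to clear fragments of the Rieske subunit, was at 25.9 to 26.7 FPKM in Control, 21.7 to 25.1 in NPCT and 20.8 to 24.3 in PCT. Both treated groups lay under Control, and PCT minus Control was -0.22 (SE 0.08, limma, adjusted p = 0.168).

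Complex IV, cytochrome c oxidase, needs heme A, copper and the assembly of its mitochondrially encoded cores COX1 and COX2. It has 20 names here, of which 17 were tested, with a median of 0.19 for NPCT and 0.09 for PCT over Control. With PCT 14 of the 17 were above 0 (82.4%, against 51.0% of all genes). All PCT libraries lay above Control in 29.4%, against 13.1% of all genes. None was called in any comparison (limma), and an unadjusted p under 0.05 was reached by 1 for PCT against Control (5.88%, against 18.9% of all genes) and 5 for NPCT against PCT (29.4%, against 33.1%). Cox20, a membrane chaperone of COX2, was lower with NPCT than with PCT. It was chosen after its values were seen. Cox20 (ENSRNOG00000004553, chr13:96219853-96224023, plus strand) was at 34.6, 37.2 and 31.7 FPKM in Control, 25.7, 28.3 and 26.2 FPKM in NPCT and 37.2, 37.7 and 38.1 FPKM in PCT. All NPCT libraries were below all others. NPCT minus PCT was -0.50 (SE 0.07, limma, adjusted p = 0.00391), on 369 to 687 fragments a library. The adjusted p stayed at most 0.05 in each of the 20 alternatives, from 0.00337 to 0.0194, and the difference ran from -0.55 to -0.47. NPCT minus Control was -0.37 and PCT minus Control 0.13 (SE 0.07, limma, adjusted p = 0.365).

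The promoter of Cox20 is given for contrast with that of Uqcc2, since its transcript was lower in NPCT libraries. The window is chr13:92599709-92600008 on the plus strand of GRCr8, and its capitals mark the single ETS match, on the opposite strand, starting 205 bases before the gene start.
Cox20: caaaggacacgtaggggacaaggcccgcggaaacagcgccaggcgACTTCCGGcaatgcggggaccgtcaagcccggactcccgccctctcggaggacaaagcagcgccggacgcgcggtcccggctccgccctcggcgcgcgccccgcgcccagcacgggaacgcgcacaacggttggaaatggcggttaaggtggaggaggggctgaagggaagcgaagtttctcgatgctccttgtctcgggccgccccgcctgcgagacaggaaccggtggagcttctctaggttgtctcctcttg
Neither an NRF1 nor a YY1 match was found in this window.

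Cox14 and Coa6 had the smallest gene models among the detailed members. Cox14, with Coa3, binds newly made COX1. Cox14 (ENSRNOG00000061425, chr7:141380322-141380495, plus strand) was at 187, 160 and 206 FPKM in Control, 274, 239 and 282 FPKM in NPCT and 173, 209 and 279 FPKM in PCT. NPCT was above Control, and PCT spanned both, with its replicate 3 among the NPCT libraries. NPCT minus Control was 0.53, PCT minus Control 0.24 (limma, adjusted p = 0.489) and NPCT minus PCT 0.29 (limma, adjusted p = 0.254), each with an SE of 0.16. PCT minus Control was 0.05 without PCT replicate 3, 0.14 without Control replicate 2 and 0.40 without PCT replicate 1, and NPCT minus PCT was 0.47 without PCT replicate 3 and 0.13 without PCT replicate 1. Coa3 showed narrow groups, at 29.3 to 30.7 FPKM in Control, 32.1 to 34.4 in NPCT and 32.2 to 34.1 in PCT. Cmc1, a further COX1 factor, was at 4.57 to 5.40 FPKM in Control and 4.64 to 9.58 in NPCT.

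Among the copper factors, which load the copper sites of COX1 and COX2, the median difference was -0.09 for NPCT and 0.05 for PCT over Control. Coa6 (ENSRNOG00000052701, chr19:59328960-59331192, plus strand) was at 16.8, 11.7 and 9.79 FPKM in Control, 6.55, 10.5 and 7.82 FPKM in NPCT and 10.1, 10.6 and 9.50 FPKM in PCT, on 22 to 62 fragments a library. Control replicate 1 was the highest library, and the groups overlapped. NPCT minus Control was -0.61 and PCT minus Control -0.31 (SE 0.21, limma, adjusted p = 0.487), and without Control replicate 1 they were -0.39 and -0.09. PCT minus Control was -0.48 without Control replicate 3. Sco1, which hands copper to COX2, was named after its values were seen, and its levels were 8.62 to 9.48 FPKM in Control, 7.39 to 8.83 in NPCT and 9.61 to 11.3 in PCT. Its NPCT minus PCT difference was -0.33 (SE 0.10, limma, adjusted p = 0.0471), and the adjusted p was at most 0.05 in 8 of 20 alternatives. It exceeded 0.05 without any 1 library (0.0555 to 0.149) other than PCT replicate 3 (0.0433).

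Cox17, a copper chaperone, was at 19.0 to 22.8 FPKM in Control, 22.0 to 32.1 in NPCT and 17.4 to 29.0 in PCT. Cox19, a copper factor too, had NPCT libraries at 14.4 to 17.1 FPKM, below PCT libraries at 17.5 to 19.0 FPKM (NPCT minus PCT -0.23, limma, adjusted p = 0.0769). The heme A enzymes Cox10 and Cox15 had differences of 0.19 and 0.30 for NPCT and 0.06 and 0.24 for PCT over Control. Pet100, a membrane factor for complex IV, was also named after its values were seen. Pet100 was at 10.8 to 11.5 FPKM in Control, 13.2 to 14.7 in NPCT and 11.5 to 12 in PCT, so that NPCT was above both other groups. NPCT minus PCT was 0.23 (SE 0.07, limma, adjusted p = 0.0478). This held in 7 of 20 alternatives and was lost without any 1 library (0.0704 to 0.134) other than PCT replicate 3 (0.0363). The remaining complex IV members, Cox11 and Cox16 for copper, Cox18 for the insertion of COX2, and Cmc2, had differences of -0.04 to 0.30 for NPCT and -0.02 to 0.14 for PCT over Control. Coa5 was at 31.3 to 36.8 FPKM in NPCT, below 36.9 to 42.5 in Control and 37.0 to 47.8 in PCT, and Coa7 was at 1.67 to 2.46 FPKM in Control, 2.68 to 3.59 in NPCT and 2.01 to 3.18 in PCT.

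Complex V, the ATP synthase, has 4 factors here, all tested, and they differed in direction. Beside Fmc1, the F1 factors Atpaf1 and Atpaf2 bind the beta and alpha subunits of the head. Atpaf1 was at 8.04 to 9.02 FPKM in Control, 6.57 to 7.87 in NPCT and 7.85 to 8.86 in PCT, and NPCT minus PCT was -0.27 (SE 0.10, limma, adjusted p = 0.097). Atpaf2 was at 17.2 to 21.4 FPKM in Control, 19.8 to 24.1 in NPCT and 15.5 to 21.2 in PCT. Tmem70, which helps to form the membrane rotor, had the highest level per length of the 4. Tmem70 (ENSRNOG00000006608, chr5:2019852-2037038, minus strand) was at 30.7, 27.8 and 29.8 FPKM in Control, 25.0, 25.2 and 27.9 FPKM in NPCT and 29.8, 29.0 and 27.3 FPKM in PCT. Its groups overlapped, with 2 NPCT libraries below all others. NPCT minus Control was -0.18, PCT minus Control -0.04 (limma, adjusted p = 0.834) and NPCT minus PCT -0.14 (limma, adjusted p = 0.189), each with an SE of 0.07.

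**Figure D3:**
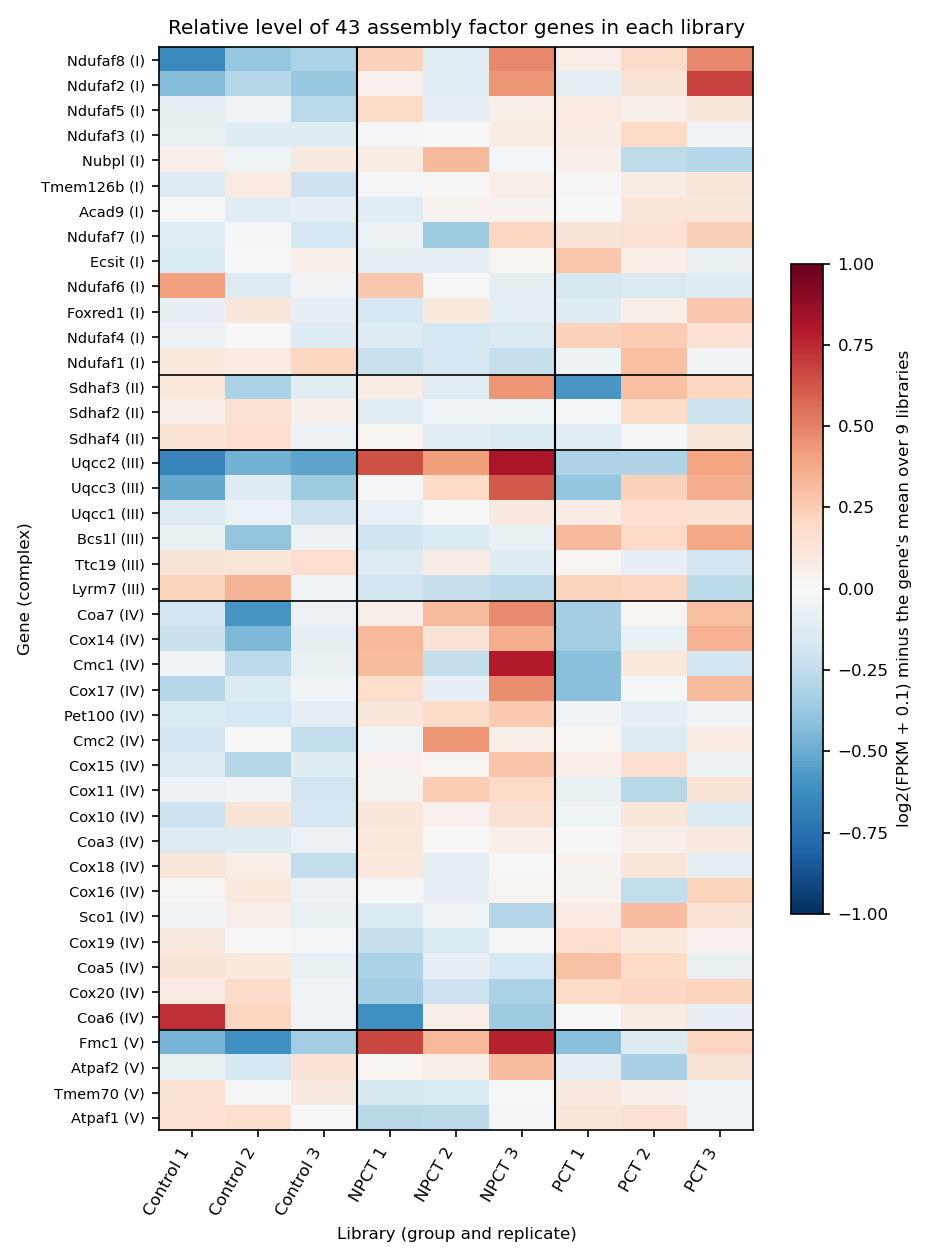
Relative level of the 43 tested members (rows, by complex) in the 9 libraries (columns), as log2 of FPKM plus 0.1 minus the mean of the gene over the libraries. The rows of Uqcc2 and Fmc1 are red in the 3 NPCT libraries and paler in PCT replicate 3, and the row of Cox20 is blue in the 3 NPCT libraries.

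As a list, the members moved little from library to library. The median relative level was -0.06 ± 0.02 in Control, 0.00 ± 0.05 in NPCT and 0.08 ± 0.06 in PCT (SD, n = 3) on the log2 scale, with Control at -0.08 to -0.03, NPCT at -0.04 to 0.05 and PCT at 0.01 to 0.11. PCT was above Control in every library, and NPCT overlapped PCT. Without Uqcc2 and Fmc1, the median difference was 0.05 for NPCT and 0.09 for PCT over Control in the other 41 members.

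The members were set beside the enzymes that they build. The 79 tested nuclear subunits had a median difference of 0.22 with NPCT and 0.22 with PCT over Control, against 0.10 and 0.12 for the members. The subunit genes are shorter, with a median of 704 bases against 1578 for the members. All genes in the bin of length with a median of 631 bases had a median difference of 0.22 for NPCT minus Control. This was the highest of the length bins, and the bins beside it, with medians of 360 and 889 bases, had 0.115 and 0.163. No such value was computed for PCT minus Control. All 3 libraries lay above Control in 65.8% of the nuclear subunits with NPCT and 51.9% with PCT, against 27.9% and 34.9% of the members and 20.0% and 13.1% of all genes. None of these subunits was called over Control (limma), and 41 with NPCT and 34 with PCT reached an unadjusted p under 0.05, as did 29.3% and 18.9% of all genes. Those that passed the adjusted p with PCT included Ndufb8 of complex I (119, 166 and 168 FPKM on average in Control, NPCT and PCT), Ndufa4 of complex IV, and Atp5mg and Atp5po of complex V. Between the peptides, 1 nuclear subunit (1.27%) was called, Atp5me, which was higher with NPCT (1.28, limma, adjusted p = 0.00826). The adjusted p alone was passed by 1 higher and 7 lower with NPCT, or 10.1%, against 16.3% of all genes. The 13 mitochondrially encoded subunits had medians of -0.62 with NPCT and -0.05 with PCT over Control, and 4 of them were called lower with NPCT than with PCT, namely ND2, ND4, ND4L and ND5, where 5.75% of all genes were called in either direction. The median relative level of this list was -0.24 in PCT replicate 3, near the -0.45 to -0.28 of the NPCT libraries, and 0.44 and 0.28 in the other PCT libraries. The subunits named here were chosen after their values were seen. COX1 and COX2, which Cox14 and Cox20 serve, were not among them. The difference between the lists was not tested.

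Gene length moved with the differences for NPCT minus Control. Many of the members are short, the median member being 1578 bases long and the median of all genes tested 2136 bases. The median difference for NPCT minus Control was 0.22 in the 22 shorter members, 0.18 in the 20 of them other than Uqcc2 and Fmc1, and 0.04 in the 21 longer ones. Spearman's rho of that difference with length was -0.33 over the 43 members, -0.29 without Uqcc2 and Fmc1 and -0.22 over all genes tested, a description across genes of the same libraries. For PCT minus Control rho was -0.07 over the members and -0.14 over all genes, with medians of 0.13 in the shorter and 0.08 in the longer members. PCT replicate 3, set against the mean of the other 2 PCT libraries, had rho of -0.50 over the members and -0.20 over all genes, with a median departure of 0.16 in the shorter and -0.11 in the longer members. In that library 17 of the 22 shorter members were above that mean, against 8 of the 21 longer ones. With the trend in gene length removed from each library, Uqcc2 was 1.00 and Fmc1 0.97 for NPCT minus Control, and the median of the members was 0.05. Without NPCT replicate 3, which had the highest level of both genes, they were 1.08 and 0.96. Without PCT replicate 3, Uqcc2 was 0.92 and Fmc1 0.86 for NPCT minus PCT. The part of RNA quality or library preparation in these differences was not tested.

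**Figure D4:**
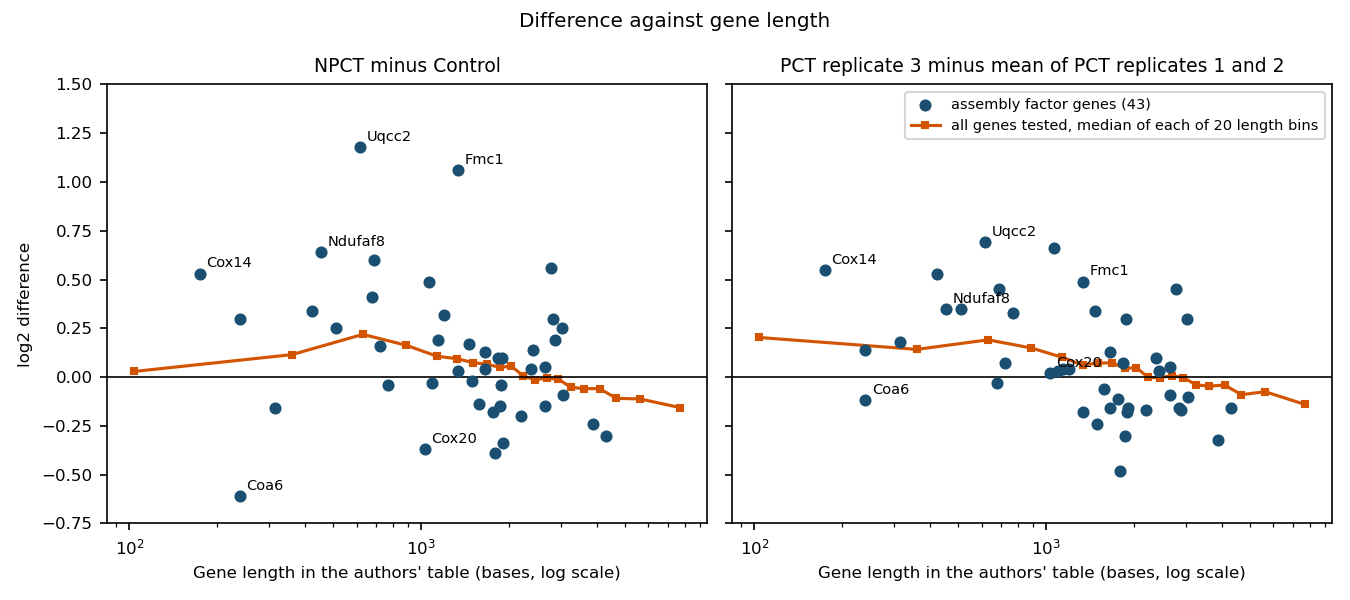
Log2 difference against gene length (log scale, bases) for NPCT minus Control and for PCT replicate 3 minus the mean of PCT replicates 1 and 2. Points are the 43 members and the line joins the medians of all genes tested in 20 bins of length. The line is above 0 for short genes and below 0 for the longest genes in both panels, and Uqcc2 and Fmc1 lie above it.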

How the data were processed

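Transcript levels came from 9 RNA libraries of rat hippocampal neurons, 3 each of Control, NPCT and PCT as the labels name them. Per the labels and the study's methods, the authors purified poly-A RNA, aligned reads with HISAT2 2.0.5 to Rnor_6.0, counted with featureCounts 1.5.0-p3 and deposited unlogged FPKM. The submitters' processing notes also name CASAVA, StringTie 1.3.3b and DESeq2 1.20.0. Columns without a sample numbered 0.

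FPKM times gene length gave whole multiples of 1 step per library (tolerance 0.05) in 100% of values, which gave the fragments. FPKM was divided by a median-ratio factor, 1.0065 in every library, so the deposited values already held a scaling of this kind. The alternative that used FPKM as deposited therefore nearly repeats the main fit. In NPCT against PCT it called 919 genes, against 918. With limma 3.58.1 (trend) in R 4.3.3, log2(FPKM + 0.1) was modelled by group on genes with a mean of at least 0.5, with Benjamini-Hochberg adjustment over all genes tested. Fold changes are on this scale and understate changes of low genes. The study tested counts with DESeq2, but the deposited FPKM are not counts. The fit was tested on simulated data.

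The members and gene lists were chosen with earlier results of these data known. Values in every library were given for Uqcc2, Fmc1, each member called and, in each complex, the tested member with the largest difference from Control with either peptide or the highest mean FPKM, and genes added later are said to be so. The rule gave Uqcc2, Fmc1, Ndufaf8, Sdhaf2, Sdhaf3, Sdhaf4, Coa6, Cox14 and Tmem70. Promoter windows are from RefSeq (GRCr8), and no genome or protein table was used here. The alternatives were pseudocounts of 0.01 and 1, other filters and scalings, quantile normalization, a fit of 2 groups, a block for replicate number, the length trend taken out, limma-voom and leaving out each library. Scaling by total fragments was added after seeing the data.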

Additional observations from a re-analysis of the deposited data

Results flagged for a closer look

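For 5 members that did not choose the family, the difference between the 2 peptides passed the adjusted p (limma, Benjamini-Hochberg over all genes tested), which is a direct test of whether the effects of NPCT and PCT against the same controls differed. On the log2 scale, NPCT minus PCT was 0.23 for Pet100, -0.50 for Cox20, -0.44 for Bcs1l, -0.37 for Ndufaf4 and -0.33 for Sco1. The adjusted p was at most 0.05 in 20 of 20 alternatives for Cox20, 18 for Ndufaf4, 15 for Bcs1l, 8 for Sco1 and 7 for Pet100. In each of the 5, all 3 NPCT libraries lay on the same side of all 3 PCT libraries, which restates how they were picked. Of the members other than Uqcc2 and Fmc1, 4.88% had all NPCT libraries above PCT and 17.1% below. Of all genes tested, 15.4% and 18.0% did so. An adjusted p of at most 0.05 was found for 12.2% of the 41 members other than Uqcc2 and Fmc1 and for 16.3% of all genes tested.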

How the results depend on the processing

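Counts of members called are over all 43 members, so those with NPCT include Uqcc2 and Fmc1, which chose the family, and are a description. In NPCT against Control the members called numbered 2, and 1 with a pseudocount of 0.01, 0 with no filter on low values, 4 in the fit of only 2 groups, 4 with the replicate block, 0 when scaled by total fragments and 0 to 3 when 1 library was left out. In NPCT against PCT they numbered 2, and 0 with no filter, 0 in the fit of 2 groups and 0 to 2 when 1 library was left out. In PCT against Control they numbered 0, and 1 with the replicate block, 1 with the length trend removed and 0 to 1 when 1 library was left out. Replicate numbers did not pair the libraries (correlation of departures -0.07 to 0.03 between libraries of the same number).

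Over all genes, 35 were called in NPCT against Control, and 208 with a mean FPKM of at least 1, 9 with no filter, 189 with quantile normalization, 582 in the fit of 2 groups, 319 with the replicate block, 122 with the length trend removed, 354 with limma-voom, 0 when scaled by total fragments and 0 to 560 when 1 library was left out. In NPCT against PCT, 918 were called, 469 in the fit of 2 groups and 525 to 1625 when 1 library was left out. In PCT against Control, 368 were called, and 172 to 391 when 1 library was left out. Of the fits that left out 1 library, the highest counts for NPCT against Control and NPCT against PCT came without PCT replicate 3. The cause was not tested.

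The median difference of the members was 0.10 for NPCT and 0.12 for PCT over Control, and 0.05 and 0.06 with the length trend removed, while scaling by total fragments gave 0.13 for NPCT. Small differences changed sign. Bcs1l in NPCT against Control (0.04) was -0.03 with the length trend removed and -0.08 to 0.10 when 1 library was left out. When 1 library was left out, NPCT minus PCT was -0.19 to 0.11 for Ndufaf8, -0.15 to 0.05 for Sdhaf2 and -0.12 to 0.32 for Sdhaf3, and PCT minus Control was -0.20 to 0.00 for Sdhaf2 and -0.08 to 0.36 for Sdhaf3, which was -0.00 with the length trend removed. NPCT minus Control ran from 1.00 to 1.28 for Uqcc2 and from 0.90 to 1.19 for Fmc1 over the 20 alternatives, a description of the values that chose them. With 3 libraries a group and 22 to 62 fragments for a gene such as Coa6, differences of low genes were poorly resolved.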
